A study of Homo sapiens with 4 samples.

Results

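The mRNAs described here encode the proteins of the large subunit of the cytosolic ribosome. Members were all targets whose gene symbol begins with RPL followed by a number, or is RPLP0, RPLP1 or RPLP2, with an optional A, L, L1 or AL ending. The rule found 53 members among 20322 targets, of which 46 were core subunit genes and 7 were paralogs of core genes (RPL3L, RPL7L1, RPL10L, RPL22L1, RPL26L1, RPL36AL and RPL39L), which were kept apart. RNA was sequenced in 4 libraries of HT-29, an epithelial cell line from a human colorectal adenocarcinoma. The IMP1-OE group (2 libraries) carried a CRISPR/Cas9 deletion of IMP1 and, on that background, a PiggyBac vector with FLAG-IMP1 and a short UTR. The null group (2 libraries) carried the same CRISPR/Cas9 treatment and an empty PiggyBac vector. All cells shared puromycin in the medium and a mouse liver metastasis as the labelled source of the tumour cells, so no group with untouched IMP1 was compared. The labels do not say whether the libraries of a group came from separate clones or cultures, so a p-value here speaks of the variation between the sequenced libraries and may reflect technical variation alone.

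The large subunit holds the peptidyl transferase centre, which is made of ribosomal RNA and flanked by proteins, the tunnel through which the new peptide leaves, and a stalk that recruits translation factors. Its proteins are made in the cytoplasm, carried to the nucleolus and built into the subunit there. Most of their mRNAs begin with a cytosine followed by a run of pyrimidines, the terminal oligopyrimidine (TOP) tract, through which LARP1 and mTORC1 signalling control their translation. IMP1 (symbol IGF2BP1) is an oncofetal protein that binds mRNAs and affects their stability, transport and translation.

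Library totals ran from 9343429 to 10594813 estimated counts, and a count of 0 allowed up to 3 counts, or 0.283 to 0.321 CPM (counts scaled to a common library size, here by the library total), for counting error only. IGF2BP1 had 71 and 112 counts in the IMP1-OE libraries, against 37 and 16 counts in the null libraries. The direction follows the labels, with a fold of 3.22 and an edgeR quasi-likelihood adjusted p of 0.453. The counts were low in all libraries and not at 0 in null, so this is a weak check of the labels. Of 11 markers of colorectal epithelium, 9 to 11 per library exceeded 3 counts, while CDX1 was at 0 in 3 libraries. Among 4 hepatocyte genes, ALB and APOA1 were at 0 in all libraries, and SERPINA1 made up nearly all of the list's sum, with 719 and 728 CPM in IMP1-OE, against 421 and 220.05 CPM in null, so that it moved with the group. Its part in the results was not tested. ARSI, an arylsulfatase gene, took 8.01% and 12.4% of the counts in IMP1-OE, against 17.8% and 17.3% in null. Each null library stood apart on some markers, given in CPM by library total. In null replicate 2, 20 interferon-response genes summed to 8325 CPM, where IMP1-OE had 1029 and 1264 CPM and null replicate 1 had 1201 CPM. In null replicate 1, the intestinal markers CEACAM5, CDH17 and CDX2 stood at 57.2, 11.9 and 4.44 CPM, where the other libraries reached at most 10.2, 2.77 and 0.286 CPM. The family is therefore also described without each null library, with values for some of the genes that then move.

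The sequence around the annotated start was read for the genes with the smallest p-values, for the genes with the lowest fold changes and for paralog pairs, because the first bases carry the TOP tract of ribosomal protein mRNAs. Of the 53 members, 43 had an entry in the RefSeq promoter table (GRCh38.p14), 38 core genes and 5 paralogs. Each sequence gives 10 bases before the start and 16 from it, 5′ to 3′ on the gene's strand, and capitals mark the unbroken pyrimidines that begin with a C at the start.
RPLP2 (chr11:809957-809982, plus strand): tcggcgccttCCTTTTCCTCCCTgtc
RPL31 (chr2:101002279-101002304, plus strand): ccttcgcgctCTTCCTTTCCaacttg
RPL3 (chr22:39319608-39319633, minus strand): gccgaccggcCTCTaccggcgggatt
RPL12 (chr9:127451391-127451416, minus strand): cgatttccggCCTCTCggctttcggc
RPL37A (chr2:216498834-216498859, plus strand): gcgtctcttcCTTTCTgggctcggac
RPLP0 (chr12:120201096-120201121, minus strand): ggcgcgaggcCCTTCTCTCgccaggc
RPL18 (chr19:48619163-48619188, minus strand): agcccgttctCTCTTTCCggacctgg
RPL28 (chr19:55385922-55385947, plus strand): cctcgccttcCTCTTTCCgtctcagg
RPL36A (chrX:101391001-101391026, plus strand): ctcgcggtttCTTTCTTTCCgcgccg
RPL22 (chr1:6199580-6199605, minus strand): cgctcacctcCCTTTCTaactccgct
RPL22L1 (chr3:170870180-170870205, minus strand): ccgtagcttcCTCTCTgctctcgcgg
RPL26 (chr17:8383178-8383203, minus strand): gcgtgtagttCTCTTCCCTTTTgcgg
RPL26L1, upstream start (chr5:172958719-172958744, plus strand): tccaggggtcggcgaacgaaacgcgg
The RPLP2 tract runs for 13 bases and that of RPL31 for 10, while that of RPL3 ends after 4. RPL18, RPL28 and RPL36A, the core genes with the lowest fold changes, have tracts of 8, 8 and 10 bases, so genes at both ends of the order of fold changes carry one. RPL22L1 has a tract of 6 bases, beside 7 in RPL22, and neither annotated start of RPL26L1 has one.

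A tract of at least 5 bases was found at an annotated start in 28 of 38 core genes (73.7%) and in 1 of 5 paralogs. It was found in 19 of 26 small subunit genes (73.1%), in 3 of 42 genes of the mitochondrial large subunit (7.14%) and in 5.14% of all 27305 genes in the table. No start was measured here, and 9 members have more than 1 annotated start. Core genes with a tract had a median log2 fold change of 0.38 (28 genes) and those without one a median of 0.51 (10 genes). That split follows the annotated starts and the cut at 5 bases. RPL3, with 4 bases, falls among those without, as do RPL4 and RPL10A, whose pyrimidine runs begin a few bases after the annotated start. It therefore does not separate TOP mRNAs from others, and the difference in median was not tested. In the window from 250 bases before to 50 after the start, on either strand, the ETS-type motif CCGGAAG was present in 34.2% of core genes, 38.5% of small subunit genes and 42.9% of mitochondrial large subunit genes, against 16.8% of the genes of the count table that had an entry and 12.2% of all genes. The E-box CACGTG was present in 5.26% of core genes, against 8.77% of all genes, and the TATA box TATAAA in 7.89%, against 14.0%. These matches describe letters in the window, not bound sites.

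Core large subunit mRNAs were at higher levels in IMP1-OE than in null in nearly all members, by a modest margin. Of the 46 core genes, 43 had a log2 fold change above 0, where 48.1% of all 12113 tested genes did. Their median log2 fold change was 0.41, with a range of -0.07 to 0.99 and quartiles of 0.30 and 0.59, beside a median of -0.02 over all genes. As folds, the median was 1.33, 37 genes exceeded 1.2 and 13 exceeded 1.5. Both IMP1-OE libraries lay above both null libraries in 37 core genes and below them in 0, where the background over all genes was 21.3% above and 21.9% below. In bulk RNA, a change in RNA per cell and a change in the makeup of the cells cannot be told apart.

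No core gene passed the edgeR quasi-likelihood test at a Benjamini-Hochberg adjusted p of 0.05. The smallest adjusted p was 0.416, and the background was 0.0% (0 of 12113 genes, smallest adjusted p 0.0978). An unadjusted p under 0.05 was reached by 19 core genes, all higher in IMP1-OE, where 4.34% of all genes reached it as higher and 5.84% as lower. In the authors' deposited table, 3 core genes rose in IMP1-OE at an adjusted p under 0.05, RPLP2 (0.00619), RPL3 (0.0292) and RPL31 (0.0338), where the background was 0.428% of 12836 genes. DESeq2 on the 12113 genes called 4 core genes, these 3 among them, where the background was 0.471%. With libraries scaled by their totals alone, 46 of 46 core genes were higher, with a median of 0.49 beside 0.06 over all genes.

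**Figure D1:**
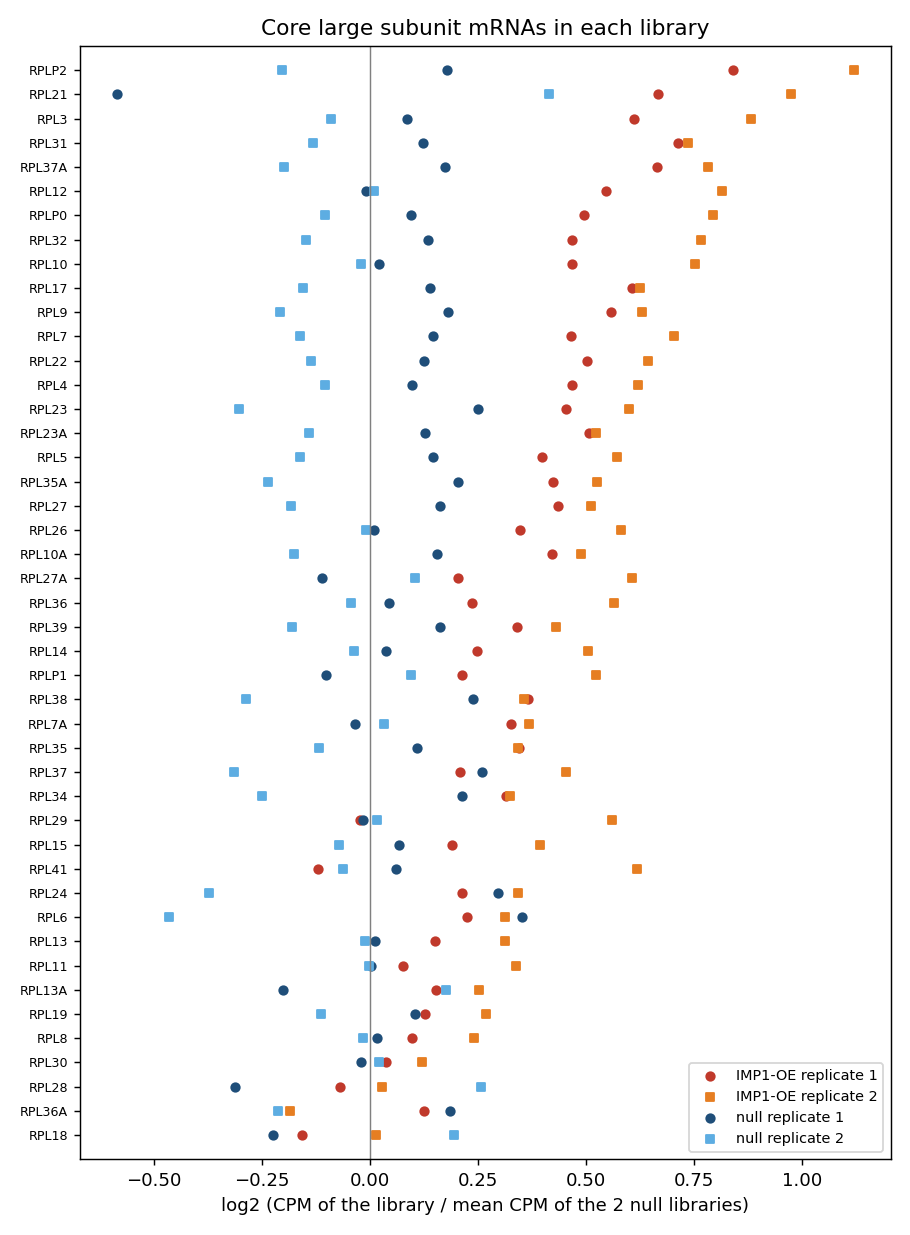
Each row is 1 of 45 core large subunit genes, ordered by its edgeR log2 fold change, and each point is 1 library, placed on the x axis by the log2 ratio of its TMM-scaled CPM to the mean CPM of the 2 null libraries. In the upper rows the IMP1-OE points lie right of both null points, and in the lowest rows (RPL18, RPL36A and RPL28) the groups overlap.

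The stalk proteins bind elongation factors and stimulate their GTP hydrolysis. RPLP0 anchors the stalk, RPLP1 and RPLP2 are the acidic proteins carried on it, and RPL12 sits at its base. RPLP2 stood at 501 and 608 CPM in the IMP1-OE libraries, against 317 and 243 CPM in the null libraries. The groups did not overlap, and the gap between them exceeded the gap within either. Its fold was 1.98 (log2 0.99, SE 0.21, edgeR adjusted p 0.416, unadjusted p 0.00337). That was the highest fold of the core genes with all libraries, but without null replicate 2 its log2 fold change was 0.81 and that of RPL21 was 1.41. In the authors' deposited table its log2 fold change is 0.87.

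RPLP0 had 387 and 476 CPM in IMP1-OE, against 293 and 255 CPM in null, and the groups were separate (log2 0.65, SE 0.19, edgeR adjusted p 0.439). RPL12 had 229.7 and 277 CPM in IMP1-OE, against 156 and 158 CPM in null (log2 0.69, SE 0.18, edgeR adjusted p 0.435). Its null libraries were nearly level and both IMP1-OE libraries lay above them. RPLP1 had 228 and 282 CPM in IMP1-OE, against 183 and 209.8 CPM in null (log2 0.38, SE 0.19, edgeR adjusted p 0.548). The acidic partners thus had unequal fold estimates, 1.98 for RPLP2 and 1.30 for RPLP1, a difference that was not tested. All 4 stalk genes were higher with separate groups (80.4% of core genes, 21.3% of all genes). Of them, 3 had an unadjusted p under 0.05 (41.3% of core genes and 4.34% of all genes, as higher). Roles were picked after earlier results were known, and whether the stalk differs from the other core genes was not tested.

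Next to the catalytic centre, RPL3 reaches toward it with a long loop, RPL8 is a core protein beside it, and RPL10 joins late in the cytoplasm. RPL3 had 766 and 924 CPM in IMP1-OE, against 531 and 471 CPM in null (log2 0.75, SE 0.18, edgeR adjusted p 0.433). RPL10 had 987 and 1203 CPM in IMP1-OE, against 724 and 703 CPM in null (log2 0.62, SE 0.17, edgeR adjusted p 0.435). In both genes the lower IMP1-OE library exceeded the higher null library. RPL8 had 934 and 1033 CPM in IMP1-OE, against 883 and 864 CPM in null. Its groups were also separate, but its log2 fold change was 0.17 (SE 0.16, edgeR adjusted p 0.756).

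RPL5 and RPL11 bind the 5S ribosomal RNA and form with it a particle that, outside the ribosome, inhibits MDM2 and so raises p53. RPL5 had 518 and 584 CPM in IMP1-OE, against 435 and 351 CPM in null (log2 0.49, SE 0.19, unadjusted p 0.0401, edgeR adjusted p 0.474). RPL11 had 355 and 426 CPM in IMP1-OE, against 338 and 337 CPM in null (log2 0.21, SE 0.17, edgeR adjusted p 0.714). The groups were separate in both, by a narrow gap in RPL11.

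Proteins of the exit tunnel and its rim include RPL4 and RPL17, which narrow the tunnel, RPL39, which lines it, and RPL31, RPL22, RPL38 and RPL35 around the opening. All 10 genes of this role were higher in IMP1-OE with separate groups (80.4% of core genes, 21.3% of all genes). Their median log2 fold change was 0.49, beside 0.41 for the core genes as a whole. Of the 10, 6 had an unadjusted p under 0.05 (41.3% of core genes and 4.34% of all genes, as higher). Whether this role differs from the other core genes was not tested. RPL31 had 556 and 566 CPM in IMP1-OE, against 369 and 309.6 CPM in null (log2 0.72, SE 0.17, edgeR adjusted p 0.433). RPL4, at the highest CPM of the core genes in both IMP1-OE libraries, had 1202 and 1337 CPM in IMP1-OE, against 929.9 and 808 CPM in null (log2 0.55, SE 0.17, edgeR adjusted p 0.450). The IMP1-OE libraries were the higher pair in both. RPL22 had 96.1 and 106 CPM in IMP1-OE, against 74.0 and 61.7 CPM in null (log2 0.57, SE 0.19, edgeR adjusted p 0.453). RPL38, known from mutant mice for its part in translating Hox mRNAs, had 756 and 751 CPM in IMP1-OE, against 693 and 481 CPM in null (log2 0.36, SE 0.22, edgeR adjusted p 0.611). Its IMP1-OE libraries were level and its null libraries far apart. Leaving out null replicate 1 gave a log2 fold change of 0.65, and leaving out null replicate 2 gave 0.12.

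RPL17 is also the front part of a readthrough target, RPL17-C18orf32. RPL17 alone had 332 and 336 CPM in IMP1-OE, against 240.0 and 196 CPM in null (log2 0.62, edgeR adjusted p 0.446). With the readthrough counts added, the log2 ratio was 0.57, so the division of fragments between the targets moved it little.

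Among the remaining genes with the smallest p-values, RPL37A, which encodes a zinc-binding subunit protein, had 300.2 and 326 CPM in IMP1-OE, against 214 and 165 CPM in null (log2 0.72, SE 0.19, edgeR adjusted p 0.435). Its groups were separate.

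In 9 core genes the groups overlapped, RPL37, RPL29, RPL24, RPL13A, RPL41, RPL6, RPL18, RPL28 and RPL36A. RPL18 had 562 and 633 CPM in IMP1-OE, against 536 and 717 CPM in null (log2 -0.07, SE 0.20, edgeR adjusted p 0.937). RPL28, a protein that budding yeast lacks, had 396 and 423 CPM in IMP1-OE, against 334 and 496 CPM in null (log2 -0.02, SE 0.23, edgeR adjusted p 0.985). In both genes the null libraries lay on either side of the IMP1-OE pair, null replicate 1 below and null replicate 2 above, and their log2 fold changes turned to 0.0079 and 0.057 when libraries were scaled by totals alone.

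RPL13A, which in human monocytes can leave the ribosome to silence inflammatory mRNAs, had 754 and 809 CPM in IMP1-OE, against 590.1 and 767 CPM in null (log2 0.20, SE 0.19, edgeR adjusted p 0.758). RPL24, a protein of the bridge between the subunits, had 652 and 714 CPM in IMP1-OE, against 691 and 434 CPM in null (log2 0.28, SE 0.25, edgeR adjusted p 0.744). RPL41, a very short basic peptide, had 51.3 and 85.6 CPM in IMP1-OE, against 58.2 and 53.4 CPM in null (log2 0.30, SE 0.28, edgeR adjusted p 0.758). A single library decided the order in each: null replicate 2 was the highest null value of RPL13A and the lowest value of RPL24, and IMP1-OE replicate 2 alone exceeded the null pair in RPL41. Without null replicate 2 the log2 fold change of RPL24 was -0.016, and without IMP1-OE replicate 2 that of RPL41 was -0.11. For RPL13A, leaving out null replicate 1 gave 0.027 and leaving out null replicate 2 gave 0.40.

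RPL36A had 135 and 109 counts in IMP1-OE, against 137 and 93 counts in null, the fewest of any core gene (log2 -0.02, SE 0.33, edgeR adjusted p 0.988). Most fragments of this locus went to its readthrough target RPL36A-HNRNPH2, with 1574 and 1911 counts in IMP1-OE, against 1474 and 968 counts in null. The sum of both targets gave a log2 ratio of 0.37, and scaling by library totals alone turned the value of RPL36A itself to 0.060. The low level and near-zero fold change of RPL36A therefore hold only for the target as deposited.

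The libraries of a group did not sit level for this family. Null replicate 2 was below null replicate 1 in 36 of 46 core genes, by a median log2 ratio of -0.21. Over all genes tested it was above null replicate 1 in 6075 of 12113 (median 0.0025). The drop was not particular to the core genes. Null replicate 2 was the higher in only 8 of 49 mitochondrial large subunit genes (median -0.28) and 6 of 29 assembly factors (median -0.26). Among the core genes that were higher in null replicate 2, RPL21 had 558 and 691 CPM in IMP1-OE, against 234 and 469 CPM in null. That was the widest gap between the null libraries (log2 1.00). The log2 fold change of RPL21 was 0.83, and became 0.41 with null replicate 1 left out and 1.41 with null replicate 2 left out. At the other end, RPL6 had 479.6 and 510.2 CPM in IMP1-OE, against 524 and 297 CPM in null, a log2 gap of -0.82 between the null libraries. Its log2 fold change was 0.27, and became 0.74 with null replicate 1 left out and -0.083 with null replicate 2 left out. RPL21 and RPL6 were chosen for this gap after their values were seen. IMP1-OE replicate 2 was above IMP1-OE replicate 1 in 42 core genes, by a median log2 ratio of 0.15, and in 6030 of 12113 genes tested. The core median was positive against each null library taken alone, and both values are given below. Interferon-response genes, the measure on which null replicate 2 stood apart, move with the lower core levels of that library. Their part in the result was not tested.

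With null replicate 2 left out, the median log2 fold change of the core genes was 0.34, beside 0.0071 over all genes. The log2 fold changes of the genes called in the authors' deposited table were then 0.81 for RPLP2, 0.67 for RPL3 and 0.60 for RPL31. For RPL37 the value was 0.078, where all libraries gave 0.34. With null replicate 1 left out, the median was 0.63, and edgeR called 16 core genes, all higher, where the background was 2.78%. They included RPLP2, RPL31, RPL3, RPL37A, RPL17, RPL4, RPL7, RPL9, RPL23A, RPL27, RPL23, RPL35A, RPL38, RPL24 and RPL6. DESeq2, in omissions added after the data were seen, called 27 core genes without null replicate 1 (background 4.6%) and 7 without null replicate 2 (background 1.26%). The null group then holds 1 library, which is assumed to vary like the IMP1-OE pair. Without IMP1-OE replicate 1 the median was 0.53 and 45 genes were higher, and without IMP1-OE replicate 2 it was 0.36 and 42 were higher, with 0 called by edgeR in each case. The direction of the family thus appeared with any library left out, while the number of calls depended on which null library stood in the comparison.

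**Figure D2:**
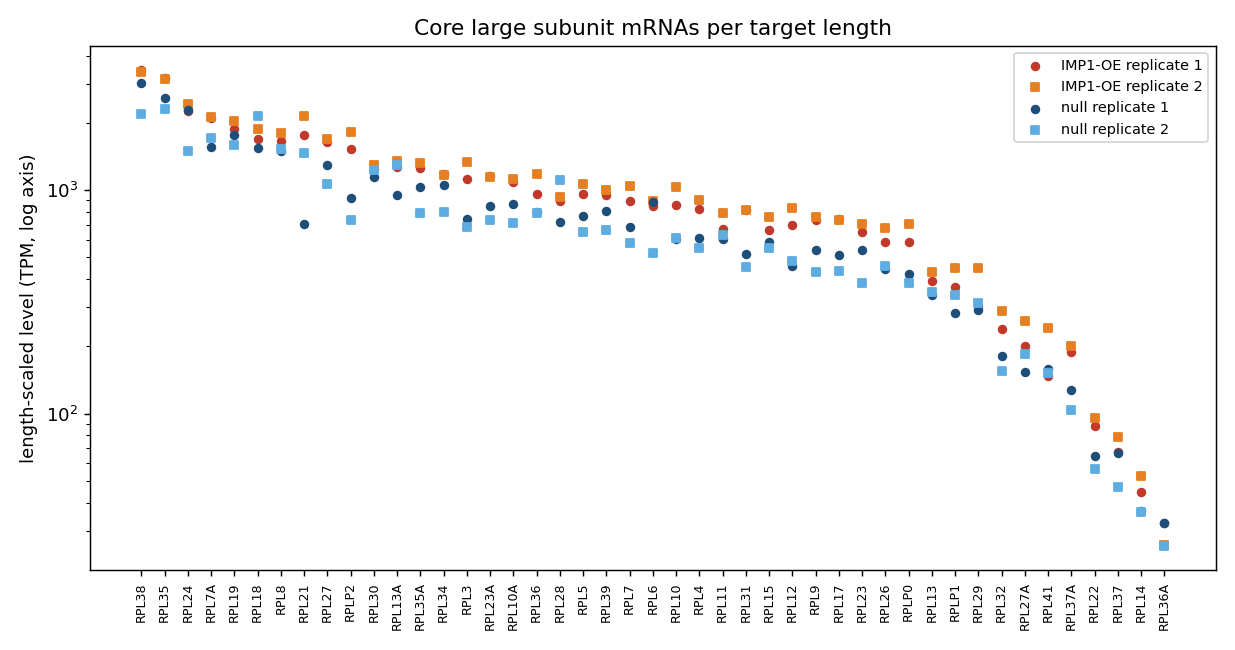
Each of 45 core genes is placed by its length-scaled level in TPM (counts scaled by target length and library size, log axis), 1 point per library, in order of the mean over the 4 libraries. Levels fall from RPL38 at 3014 TPM to RPL36A at 29.1 TPM, and the IMP1-OE points of most genes lie above the null points. For RPL36A the points of the groups cover each other.

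Subunit proteins are incorporated in equal numbers, the stalk proteins RPLP1 and RPLP2 apart, but the mRNA levels per length were unequal. On the TPM scale the mean level over the 4 libraries had a median of 783 across the core genes. RPL38 was highest, at 3459 and 3380 TPM in IMP1-OE, against 3025 and 2192 TPM in null. RPL35 followed with 3186 and 3128 TPM in IMP1-OE, against 2580 and 2303 TPM in null, and RPL24 with 2269 and 2441 TPM in IMP1-OE, against 2292 and 1503 TPM in null. RPL38 lay above RPL35 in both IMP1-OE libraries and in null replicate 1, but below it in null replicate 2, so their order was not the same in every library.

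The lowest levels per length belonged to RPL36A (29.1 TPM over the 4 libraries), RPL14 (42.5 TPM) and RPL37 (64.9 TPM). RPL14 had 168 and 201 CPM in IMP1-OE, against 145 and 138 CPM in null, and RPL37 had 273 and 324 CPM in IMP1-OE, against 283 and 189.9 CPM in null. On the CPM scale RPL41 and RPL22 were below both. The deposited table represents each gene by 1 transcript, and those of RPL14 and RPL37 are 7072 and 7573 nt long, while the shortest core target has 390 nt. In all, 9 core targets exceed 2000 nt, so a low TPM of these genes reflects the length of the chosen target as well as the counts.

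Within the sum of all core counts, 14 genes had a higher share in both IMP1-OE libraries, 9 had a lower share in both and 23 overlapped. For CPM over all genes, 21.3% lay higher and 21.9% lower without overlap. Shares sum to the whole, so a gain of some genes is a loss of others. RPLP2 supplied 2.36% and 2.57% of core counts in IMP1-OE, against 1.80% and 1.52% in null, the widest shift upward (log2 0.57). RPL18 supplied 2.64% and 2.67% in IMP1-OE, against 3.05% and 4.49% in null, the widest shift downward (log2 -0.51). RPL4, the largest contributor in IMP1-OE, supplied 5.66% and 5.64% in IMP1-OE, against 5.29% and 5.07% in null. RPL8, which also supplied a large share, had 4.395% and 4.36% in IMP1-OE, against 5.03% and 5.42% in null, a lower share in both IMP1-OE libraries.

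Core genes together took 2.23% and 2.38% of library counts in IMP1-OE, against 1.70% and 1.56% in null, a ratio of 1.42. Because ARSI took more of the null libraries, the share was also taken without it. It was then 2.42% and 2.72% in IMP1-OE (mean 2.57 ± 0.209, SD, n = 2), against 2.06% and 1.89% in null (mean 1.97 ± 0.125, SD, n = 2), a ratio of 1.30. As a share of the length-scaled total the ratio was 1.34. The groups were separate on each of these scales.

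**Figure D3:**
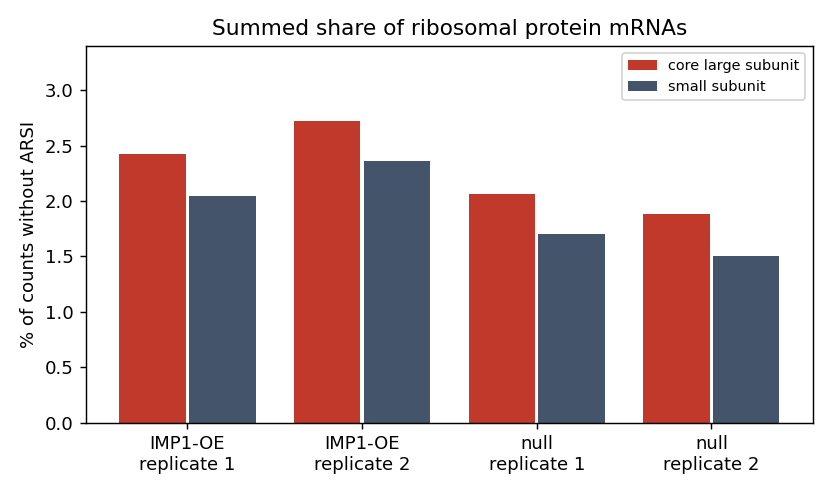
Bars give the summed share of a library's counts, with ARSI left out, taken by the 46 core large subunit genes and by the 33 small subunit genes. The core share is 2.42% and 2.72% in the IMP1-OE libraries, against 2.06% and 1.89% in the null libraries, and the small subunit bars follow the same order.

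The 33 small subunit mRNAs took 2.05% and 2.36% of counts without ARSI in IMP1-OE, against 1.70% and 1.502% in null. Counts of the core large subunit genes were 1.18 and 1.15 times those of the small subunit genes in IMP1-OE, against 1.21 and 1.26 times in null, so the balance leaned slightly toward the small subunit in IMP1-OE. Of the small subunit genes 32 of 33 were higher, with a median log2 fold change of 0.50, and 28 had separate groups (21.3% of all genes). The gene that was lower, RPS27L (log2 -0.18), is a paralog, and paralogs were not kept apart in this list. Of the small subunit genes, 3 rose in the authors' deposited table at an adjusted p under 0.05 (0.428% of all genes). The difference in median between the subunits was not tested.

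Other mRNAs known to carry a TOP tract, which encode translation factors and related proteins, were higher in 15 of 15 tested (16 were in the table), with a median of 0.53 and 8 at an unadjusted p under 0.05 (4.34% of all genes as higher). EEF1A1, the elongation factor that delivers aminoacyl-tRNA, had 6757 and 7764 CPM in IMP1-OE, against 5287 and 4354 CPM in null (log2 0.59, edgeR adjusted p 0.450). The groups were separate.

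Factors that assemble the large subunit, chaperone its proteins or export it were higher in 23 of 29, with a median of 0.21 and 4 at an unadjusted p under 0.05, RPF2, HEATR3, MDN1 and LSG1, all higher. Over all genes, 4.34% reached it as higher. RPF2, which helps place the 5S particle, had 90.7 and 112 CPM in IMP1-OE, against 52.7 and 26.7 CPM in null (log2 1.35, edgeR adjusted p 0.435). It rose in the authors' deposited table, at an adjusted p of 0.025. HEATR3, which carries RPL5 into the nucleus, had 27.0 and 26.7 CPM in IMP1-OE, against 16.2 and 15.4 CPM in null (log2 0.76, edgeR adjusted p 0.446). Both had separate groups. The mitochondrial large subunit genes, which serve mitochondrial translation and mostly lack the TOP tract, were higher in 34 of 49, with a median of 0.15 and 1 at an unadjusted p under 0.05, where 4.34% of all genes reached it as higher. No gene of these lists passed the edgeR adjusted p of 0.05.

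**Figure D4:**
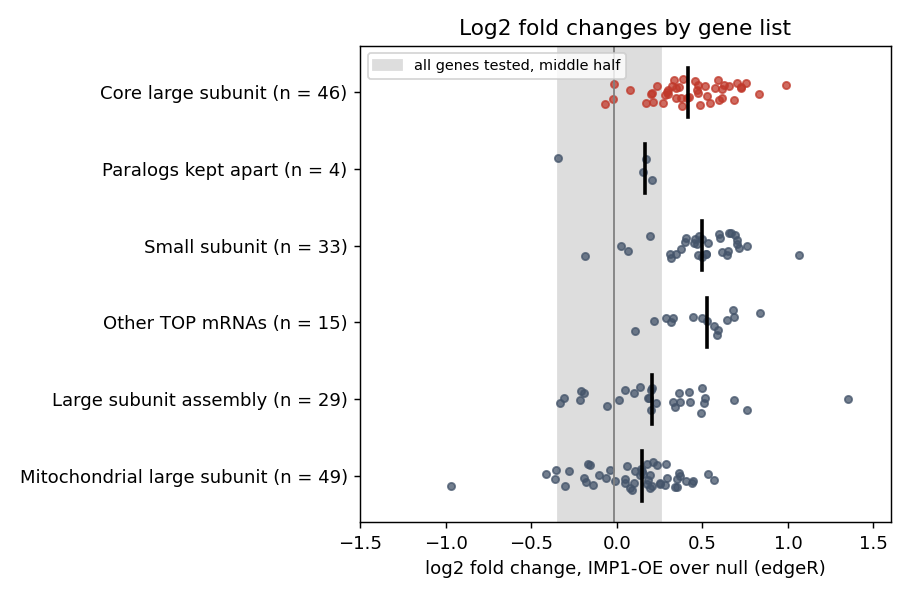
Each point is a tested gene, placed by its edgeR log2 fold change of IMP1-OE over null with all libraries, in 6 gene lists. Black bars mark the medians, 0.41 for the core large subunit, 0.16 for the paralogs, 0.50 for the small subunit, 0.53 for other TOP mRNAs, 0.21 for assembly factors and 0.15 for the mitochondrial large subunit, and the grey band runs between the quartiles of all genes tested.

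Of the 7 paralogs, 4 passed the low-count filter. Per length, 3 of these 4 were below their core partner in every library, RPL36AL being the exception, and 3 of the 4 had a log2 fold change above 0. Their median log2 fold change was 0.16, and became -0.0040 with null replicate 2 left out and 0.23 with null replicate 1 left out. RPL39L, a paralog of testis, was at 0 counts in all 4 libraries. RPL10L, also of testis, had 1 and 1 counts in IMP1-OE, against 1 and 0 in null, and RPL3L, of striated muscle, had 2 and 9 counts in IMP1-OE, against 4 and 6 in null. These 3 had few or no counts in every library.

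RPL26L1 differs from RPL26 by few residues. It had 17.2 and 24.0 CPM in IMP1-OE, against 25.0 and 27.4 CPM in null (log2 -0.35, SE 0.26, edgeR adjusted p 0.683). Its log2 fold change was -0.13 without IMP1-OE replicate 1 and -0.59 without IMP1-OE replicate 2. Both of its IMP1-OE libraries were below both null libraries, while RPL26 had 171 and 201 CPM in IMP1-OE, against 135 and 133 CPM in null (log2 0.47, SE 0.17, edgeR adjusted p 0.465). RPL26L1 thus made up 9.16% and 10.7% of the counts of the pair in IMP1-OE, against 15.7% and 17.0% in null, with separate groups.

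RPL7L1, a nucleolar relative of RPL7, had 118 and 133 CPM in IMP1-OE, against 122 and 96.2 CPM in null (log2 0.20, SE 0.20, edgeR adjusted p 0.762). The groups overlapped. RPL7 itself had 583 and 687 CPM in IMP1-OE, against 466 and 377 CPM in null (log2 0.59, SE 0.19, edgeR adjusted p 0.453), with separate groups. RPL7L1 made up 16.9% and 16.2% of the counts of the pair in IMP1-OE, against 20.7% and 20.3% in null.

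RPL22L1, which rises in mice that lack Rpl22, had 69 and 155 counts in IMP1-OE, against 93 and 92 counts in null (log2 0.15, SE 0.46, edgeR adjusted p 0.939). The null pair was level and lay between the IMP1-OE libraries. Without IMP1-OE replicate 2 the log2 fold change was -0.53. Its share of the pair with RPL22 was 6.39% and 12.2% in IMP1-OE, against 10.9% and 14.0% in null, and the groups overlapped.

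RPL36AL, whose protein is nearly identical to that of RPL36A, had 70.2 and 81.5 CPM in IMP1-OE, against 78.6 and 55.9 CPM in null (log2 0.17, SE 0.23, edgeR adjusted p 0.836). It held 84.5% and 88.7% of the counts of the pair in IMP1-OE, against 85.4% and 84.6% in null, so the paralog outnumbered its partner in each library as deposited. The readthrough target of RPL36A is not in this pair. Fragments of 18 to 50 nt can match more than 1 copy of such genes, and the whole-number estimated counts do not show how they were divided, so the counts of paralogs and of genes with many processed copies are uncertain.

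**Figure D5:**
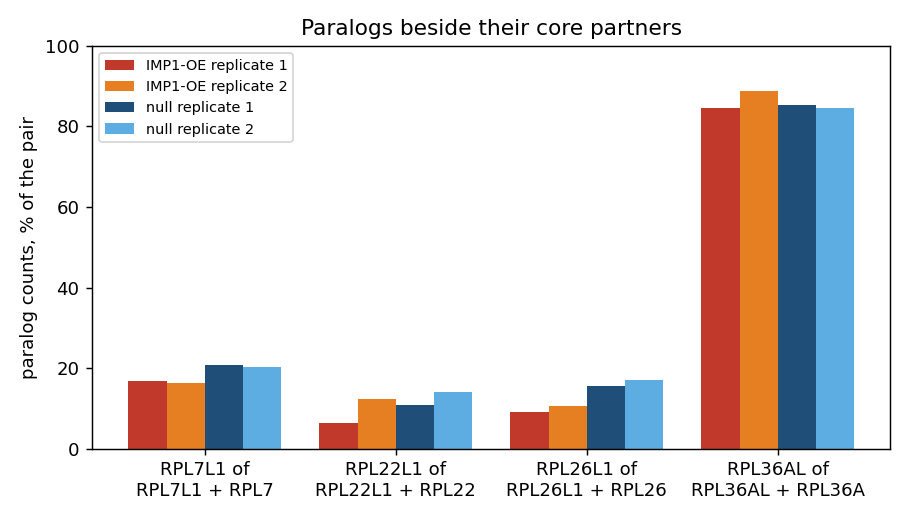
Bars give the percentage of a pair's counts assigned to the paralog, for the 4 paralogs that passed the filter, in each library. RPL26L1 is lower in both IMP1-OE libraries (9.16% and 10.7%) than in the null libraries (15.7% and 17.0%), as is RPL7L1, and RPL22L1 and RPL36AL overlap between the groups.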

How the data were processed

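RNA of HT-29 cells, 2 IMP1-OE and 2 null libraries, was sequenced after alkaline fragmentation, selection of fragments of 18 to 50 nt, rRNA depletion and 15 PCR cycles, per the labels' protocols. The submitters' processing notes name kallisto 0.46.2, HISAT2 2.1.0, DESeq, cutadapt 3.5 and fastp 0.21, and the sources used here give no genome build. The authors deposited estimated counts for 20322 targets, 1 transcript per gene, all whole numbers, and no rounding was needed. A further 2 sample names in the table match no label and were not analysed here. The authors' deposited table gives log2 fold changes (on the log2 scale, per the file headers), p-values and adjusted p-values. Its direction is not stated in the file, and 43 of 46 core genes have a positive value there, as in the counts.

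Counts of the 4 libraries were tested with edgeR 4.0.16 in R 4.3.3 (TMM, default low-count filter, 12113 genes kept, quasi-likelihood F test, Benjamini-Hochberg adjustment over all genes, threshold 0.05). All 46 core genes and 4 of 7 paralogs passed the filter. CPM values of tested genes are TMM-scaled, and those of marker and interferon genes and of floors are scaled by library totals. Log2 fold changes are IMP1-OE over null. TPM was computed from the counts and the deposited effective lengths. DESeq2 1.42.0, limma 3.58.1 and other settings were alternatives. The steps were tested on simulated counts. With 2 libraries against 2, precision is low, and the median SE of a core log2 fold change was 0.19. Each SE is the absolute log2 fold change divided by the square root of the F statistic. It therefore adds nothing independent of the p-value. Within groups the chi-square statistic per degree of freedom was 19.2 (IMP1-OE) and 55.3 (null), so no libraries were merged.

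Values in every library are given for all paralogs and their partners, the 8 core genes of smallest p, those called in the deposited table, the 3 of lowest fold change, the 3 highest and lowest per length, and chosen genes of the stalk, the 5S particle and the tunnel. Members, lists and roles were chosen with earlier results of these data known. Values of some genes in these lists are not reported here, although the counts and medians include them. Promoter sequences are RefSeq's.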

Additional observations from a re-analysis of the deposited data

How the results depend on the processing

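The median log2 fold change of the core genes was above 0 under each alternative run. EdgeR called 0 of all genes, against 22 with no low-count filter, 155 with the likelihood ratio test, 168 with DESeq2, 1 with limma-voom and 15 with the replicate number as a block. Leaving out each library gave 0 to 783 genes called by edgeR. DESeq2 called 30 without IMP1-OE replicate 1, 36 without IMP1-OE replicate 2, 1038 without null replicate 1 and 271 without null replicate 2. For core genes, leaving out a library gave 0 to 16 calls by edgeR, 1 to 29 genes at an unadjusted p under 0.05 and medians of 0.34 to 0.63. DESeq2 called 4 core genes, against 27 without null replicate 1 and 7 without null replicate 2. Its core genes at an unadjusted p under 0.05 numbered 3, 1 and 34 without IMP1-OE replicate 1, IMP1-OE replicate 2 and null replicate 1, and its median was 0.64 without null replicate 1. The readthrough sums and the DESeq2 omissions were added with the data in view. The cause of these differences was not tested. The ratio of summed core shares was 1.42, against 1.30 without ARSI and 1.34 on the length-scaled total.

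Same-numbered libraries deviated together weakly (correlation 0.12 over all genes and 0.30 over the core genes), and no label ties a number to a shared batch, so they share only a number. With the replicate block, 0 core genes were called and 44 were higher.

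Signs turned in some of the named genes, while no gene, whether its sign turned or not, passed the edgeR test with all libraries. With a library left out, values ran from -0.26 to 0.16 for RPL18, -0.28 to 0.29 for RPL28, -0.21 to 0.19 for RPL36A, -0.016 to 0.65 for RPL24, -0.052 to 0.44 for RPL36AL, -0.11 to 0.62 for RPL41, -0.083 to 0.74 for RPL6, -0.011 to 0.56 for RPL29 and -0.53 to 0.62 for RPL22L1. Scaling by totals gave 0.0079 for RPL18, 0.057 for RPL28 and 0.060 for RPL36A. RPL28 was 0.0083 with limma-voom and 0.0071 with the block, and RPL36A 0.37 with its readthrough target. In the DESeq2 omissions that turned a sign, RPL18 was 0.014 and 0.16, RPL28 0.027 and 0.29, RPL36A 0.13 and 0.20, RPL24 -0.015, RPL36AL -0.050, RPL41 -0.11, RPL6 -0.081, RPL29 -0.015 and RPL22L1 -0.54. Counts as low as 93 (RPL36A) and 69 (RPL22L1) limit what these genes can show.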
